A study of Mus musculus with 21 samples.

Results

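The AP-1 family of transcription factors was followed through 10 genes in mouse macrophage-like cells and mouse liver. These were Fos, Fosb, Fosl1 and Fosl2, which encode the FOS proteins, Jun, Junb and Jund, which encode the JUN proteins, and Batf, Batf3 and Atf3, whose products pair with them. The genes were taken by symbol out of 35622 symbols in all, and were chosen with earlier results of these data known. All 10 were among the 35550 genes listed for the cell line, and 8 were among the 5298 genes listed for liver, where Fosb and Batf3 are not listed.

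AP-1 proteins carry a basic region that binds DNA and a leucine zipper that joins them in pairs, and FOS proteins need a partner such as a JUN protein to bind. In macrophages, endotoxin acts through Toll-like receptor and MAP kinase signalling on existing AP-1 proteins and on transcription of their genes, Fos being a classical gene of the first wave and Atf3 a known brake on cytokine genes. BATF proteins lack a transactivation domain, pair with JUN proteins and bind composite sites with the interferon regulatory factors IRF4 and IRF8.

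Expression was measured by RNA sequencing in 21 libraries, as TPM, a unit of transcript abundance per length and per library. Wild-type (WT) cells of RAW264.7, an established macrophage-like line of the mouse, were sampled at 24 h with PBS, with LPS at 1 µg/mL, or with LPS plus CTM at 0.5 mM, and at 12 h WT and Vim-KO RAW264.7 cells were sampled with PBS or with LPS at 1 µg/mL, each group having 2 libraries. LPS is the endotoxin of Gram-negative bacteria, CTM is named as in the labels, and Vim encodes vimentin. Liver of C57BL/6J mice gave 1 library for each of 7 groups, after intraperitoneal injection: WT with PBS, WT with LPS at 30 mg/kg, WT with LPS plus CTM at 100 mg/kg, WT with LPS without or with depletion of liver macrophages (no dose is given for this pair), and TG2-KO with PBS or with LPS at 30 mg/kg. TG2-KO lacks transglutaminase 2, encoded by Tgm2. The sources used here do not give the age of the mice, the method of depletion, how the Vim-KO line was made or whether it is a single clone, so that loss of Vim and other differences between the lines cannot be told apart.

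TPM hold no read counts, so depth and counting error are unknown. Separate cultures are not stated for the libraries of a group, so a p-value here sets a difference against the spread of paired libraries that could be technical repeats. Vim was between 1375 and 1930 TPM in the WT libraries at 12 h and 16.99 to 33.0 TPM in those of Vim-KO cells, and liver Tgm2 was 0.74 and 15.5 TPM in TG2-KO against at least 35.7 TPM in WT. All 8 macrophage markers were at 1 TPM or more in every cell line group, and their summed level was 9155 and 9162 TPM in Vim-KO cells with PBS against 17683 and 17812 TPM in WT cells with PBS. Most of each sum was Lyz2, with means of 5594.5 TPM in Vim-KO and 13363 TPM in WT cells. At an adjusted p under 0.05 in limma, 6 of the 8 were lower in Vim-KO cells and 0 higher (25.4% and 17.7% of all genes tested). The 9 lymphocyte markers summed to at most 0.388 TPM in any cell line library. The 6 neutrophil markers summed to between 895 and 910.4 TPM in WT cells with LPS at 12 h, through S100a8 (908 and 892 TPM) while S100a9 was 2.19 and 2.77 TPM, and to between 13.3 and 14.03 TPM in Vim-KO cells with LPS. The part of these markers in the results below was not tested.

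The family is spread over 7 chromosomes (GRCm38), with some close neighbours. Atf3 (chr1:191170296-191218039) and Batf3 (chr1:191097847-191108945) lie 61350 bases apart, and Fos (chr12:85473890-85477273) and Batf (chr12:85686669-85709087) flank Jdp2, which encodes another AP-1 partner. Jun (chr4:95049034-95052222) and Jund (chr8:70698949-70700616) are annotated with a single exon, and Junb lies at chr8:84974484-84978718. Fosl1 (chr19:5447547-5455946), Fosl2 (chr5:32135801-32157842) and Fosb (chr7:19302696-19310051) have at most 4 to 5 exons in an annotated transcript. The stretch from 150 bases before to 20 bases after the RefSeq start (GRCm38.p6) is shown for 4 members that changed in different ways: Jun, Fos, Batf, which changed most between Vim-KO and WT cells, and Atf3, which changed most with LPS at 24 h. Capitals mark the matches described after them, and each sequence is read 5′ to 3′ on the gene's strand.
Jun, chr4:95052203-95052372, minus strand: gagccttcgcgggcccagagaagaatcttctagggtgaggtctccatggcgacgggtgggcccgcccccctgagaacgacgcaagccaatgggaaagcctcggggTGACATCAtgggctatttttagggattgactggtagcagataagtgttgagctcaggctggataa
Fos, chr12:85473740-85473909, plus strand: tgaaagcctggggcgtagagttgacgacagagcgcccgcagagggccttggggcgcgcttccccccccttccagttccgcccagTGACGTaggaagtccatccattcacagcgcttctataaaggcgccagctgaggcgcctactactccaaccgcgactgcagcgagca
Batf, chr12:85686570-85686739, plus strand: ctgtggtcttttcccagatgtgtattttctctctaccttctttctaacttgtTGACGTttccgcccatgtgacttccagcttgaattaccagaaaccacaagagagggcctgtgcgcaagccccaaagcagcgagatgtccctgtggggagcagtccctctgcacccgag
Atf3, chr1:191183314-191183483, minus strand: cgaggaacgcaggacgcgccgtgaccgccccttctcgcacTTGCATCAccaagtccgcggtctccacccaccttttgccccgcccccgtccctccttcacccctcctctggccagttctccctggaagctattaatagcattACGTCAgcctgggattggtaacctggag

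RefSeq promoters from 250 bases before to 50 bases after the start were available for 9 of the 10 members, Fosl1 being the exception, among 32851 promoters in all. Motifs were searched on both strands. The canonical AP-1 site TGACTCA was found in 0 of the 9 members and in 5.2% of all promoters, and the full cyclic AMP response element TGACGTCA in 0 of 9 and in 1.79%. Its leading part TGACGT, which every full element also holds, was found in Fos at -66, in Batf at -98 and in Atf3 at -8, and in 7.51% of all promoters. The variant TGACATCA, long described as an AP-1 site of the Jun promoter, was found at -45 in Jun and in no other member, against 3.62% of all promoters. Atf3 had TTGCATCA, a composite site of C/EBP and ATF proteins, at -110, against 0.895% of all promoters. The stretch shown for Atf3 lies inside the annotated gene (3 transcripts) and not at its 5′ end, so its positions refer to that start only. A CArG box, bound by serum response factor, was found in 0 of 9 members (1.63% of all), and an NF-kB site in Fos, Fosb and Fosl2 (4.51% of all). A match describes letters in this window and not binding, and an absence says nothing about sites farther from the start.

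**Figure D1:**
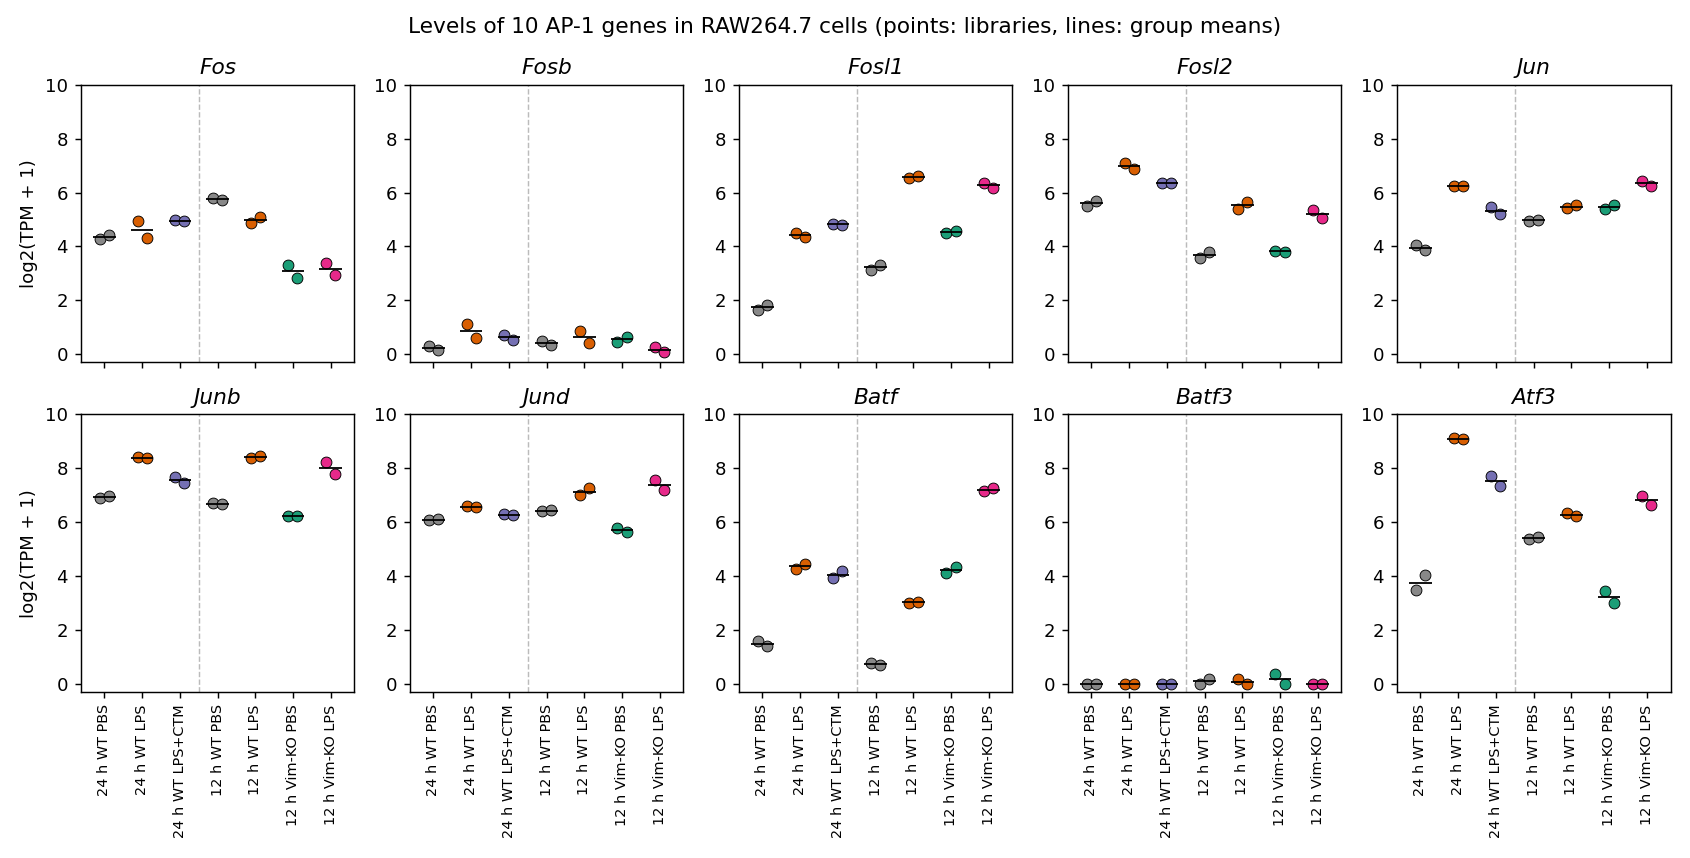
Level of each of the 10 genes as log2(TPM + 1) (y axis) in the 7 RAW264.7 groups (x axis). Points are the 2 libraries of a group, lines their mean, and the dashed line separates the 24 h from the 12 h experiment, which were normalized separately. Atf3 with LPS at 24 h (558 and 537 TPM) and Batf in Vim-KO cells with LPS (143 and 152 TPM) stand above all other groups of their gene.

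LPS against PBS at 24 h asks how the family responded to endotoxin in WT cells. Atf3 changed most, 43.2-fold, and Batf, Fosl1, Jun, Junb, Fosl2 and Jund also rose, while Fos did not pass the test. Genes averaging 1 TPM or more over an experiment were tested with limma on log2(TPM + 1), at an adjusted p under 0.05, which left 8 of the 10 members. Of these 8, 7 rose and 0 fell, where 20.9% of the 11030 genes tested rose and 45.1% fell. Fold changes on this scale, given with their SE, understate the change of low genes, and their median was 1.87 over the 8 members and -0.23 over all genes tested. In bulk RNA, a change in the share of expressing cells and a change in RNA per cell cannot be told apart.

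Among the FOS genes, Fosl1, which encodes FRA-1, was 2.13 and 2.56 TPM under PBS and 21.4 and 19.6 TPM under LPS. Its groups did not overlap, with a log2 fold change of 2.69 ± 0.12 (limma adjusted p = 2.39e-06). Fosl2, which encodes FRA-2, was 44.8 and 51.2 TPM under PBS and 136 and 118 TPM under LPS (log2 fold change 1.38 ± 0.09, limma adjusted p = 1.82e-05), and was the FOS gene with the highest level at both. Fos was 18.6 and 20.6 TPM under PBS and 29.4 and 19.2 TPM under LPS. The lower LPS library of Fos lay within the range of the PBS libraries, and the log2 fold change was 0.27 ± 0.18 (limma adjusted p = 0.228). That value rested on the library numbered 2: it was -0.031 without it and 0.56 without the library numbered 3 (limma adjusted p = 0.0073). Fosb was at most 1.18 TPM in the cell line and was not tested.

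All 3 JUN genes rose. Jun, the founding member, whose activity JNK raises by phosphorylation, was 15.6 and 13.6 TPM under PBS and 74.3 and 75.2 TPM under LPS (log2 fold change 2.28 ± 0.11, limma adjusted p = 4.04e-06). Junb, often described as a restraint on Jun, was 119.7 and 125 TPM under PBS and 343 and 329.6 TPM under LPS, with a smaller log2 fold change of 1.45 ± 0.07 (limma adjusted p = 4.72e-06) from a higher starting level. Jund, the JUN gene known for steady expression in resting cells, was 66.7 and 68.4 TPM under PBS and 95.5 and 92.8 TPM under LPS. Its log2 fold change of 0.47 ± 0.06 (limma adjusted p = 4.08e-04) was the smallest of the 7 that passed.

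Atf3 was 10.1 and 15.3 TPM under PBS and 558 and 537 TPM under LPS, which made it the member with the highest level in both LPS libraries. Its log2 fold change was 5.35 ± 0.19 (limma adjusted p = 8.60e-07). Batf was 1.97 and 1.66 TPM under PBS and 18.4 and 21.1 TPM under LPS (log2 fold change 2.88 ± 0.15, limma adjusted p = 4.78e-06). Batf3, best known from dendritic cells, was listed at 0 in all 6 libraries at 24 h and at up to 0.282 TPM at 12 h, and was not tested.

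LPS plus CTM against LPS asks how CTM altered the family under endotoxin, with the same LPS libraries as the comparison with PBS. Levels of 5 members fell (Atf3, Jun, Junb, Fosl2 and Jund), Fosl1 rose by a small amount, and Fos and Batf did not pass. Over all genes 16.1% rose and 9.45% fell, and the median log2 fold change was -0.48 over the 8 members and 0.07 over all genes. Atf3 was 207 and 160.2 TPM with CTM, which is 0.336 times the level with LPS alone (log2 fold change -1.58 ± 0.19, limma adjusted p = 0.0018). Jun, at 42.8 and 35.5 TPM (log2 fold change -0.92 ± 0.11, limma adjusted p = 0.00199), and Junb, at 202 and 176 TPM (log2 fold change -0.83 ± 0.07, limma adjusted p = 7.00e-04), came to 0.524 and 0.561 times the LPS level. Fosl2 was 81.0 and 80.2 TPM (log2 fold change -0.64 ± 0.09, limma adjusted p = 0.00383). In all of these the CTM libraries lay between those with PBS and those with LPS alone.

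The other members moved less or in another direction. Jund was 77.6 and 75.0 TPM with CTM (log2 fold change -0.30 ± 0.06, limma adjusted p = 0.0128), and this call was lost when either CTM library was left out (limma adjusted p = 0.0533 without the library numbered 2 and 0.0896 without that numbered 3). Fosl1 was 27.3 and 27.1 TPM, above both LPS libraries (log2 fold change 0.39 ± 0.12, limma adjusted p = 0.0473), a call that held under 3 of 11 alternative settings and was lost without any of the LPS and CTM libraries (limma adjusted p between 0.0746 and 0.177). Batf was 14.1 and 17.2 TPM, below both LPS libraries, without passing (log2 fold change -0.32 ± 0.15, limma adjusted p = 0.152). Fos was 30.5 and 29.5 TPM (log2 fold change 0.32 ± 0.18, limma adjusted p = 0.226). Without the LPS library numbered 2, the Fos change was 0.62 (limma adjusted p = 0.0188).

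Against PBS, which shares the CTM and PBS libraries with the comparisons above, all 8 members tested were higher with LPS plus CTM, where 17.4% of genes rose and 35.5% fell. The log2 fold changes were 3.77 ± 0.19 for Atf3, 3.08 ± 0.12 for Fosl1, 2.56 ± 0.15 for Batf, 1.36 ± 0.11 for Jun, 0.74 ± 0.09 for Fosl2 and 0.62 ± 0.07 for Junb. The calls for Fos (0.59 ± 0.18, limma adjusted p = 0.0285) and Jund (0.17 ± 0.06, limma adjusted p = 0.0475) were lost when any library of either group was left out (limma adjusted p between 0.0709 and 0.131 for Fos and between 0.105 and 0.197 for Jund).

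**Figure D2:**
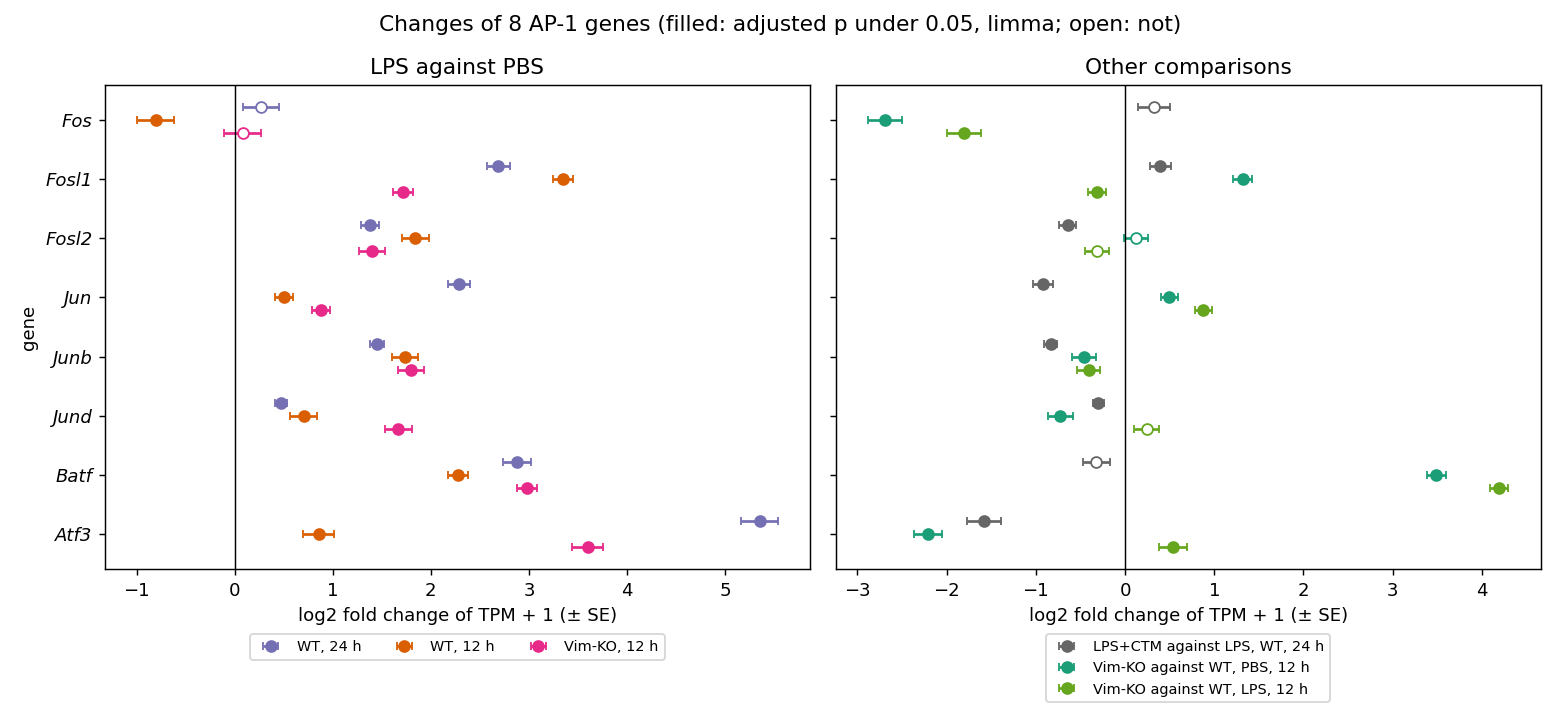
Log2 fold change of TPM + 1 with its SE (x axis) for the 8 genes tested (y axis), for LPS against PBS in 3 settings (left) and for CTM and Vim-KO comparisons (right). Filled points passed an adjusted p under 0.05 in limma and open points did not. Atf3 spreads widest on the left, from 0.86 in WT cells at 12 h to 5.35 at 24 h, and Batf lies farthest to the right on the right panel, at 3.49 and 4.20.

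LPS against PBS at 12 h was measured in WT and in Vim-KO cells, and asks whether the response differs without vimentin. In WT cells 7 members rose and Fos fell, where 17.8% of 11115 genes rose and 53.1% fell. In Vim-KO cells 7 members rose and Fos did not pass, where 20.5% of genes rose and 45.8% fell. The median log2 fold change of the 8 members was 1.30 in WT and 1.69 in Vim-KO cells, and -0.35 and -0.23 over all genes. The LPS changes of 4 members differed between the genotypes by the interaction term, that of Atf3 and Jund being larger in Vim-KO, that of Fosl1 smaller, and that of Batf of a direction that depended on the pseudocount. Over all genes tested, 13.7% had a higher and 6.96% a lower interaction.

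Fosl1 was 7.77 and 9.06 TPM under PBS and 91.2 and 97.8 TPM under LPS in WT cells (log2 fold change 3.35 ± 0.10, limma adjusted p = 1.11e-07). In Vim-KO cells it was 21.7 and 23.1 TPM under PBS and 81.8 and 70.5 TPM under LPS (log2 fold change 1.72 ± 0.10, limma adjusted p = 2.91e-06). The Vim-KO libraries thus started higher and ended lower, although the difference with LPS (-0.31, limma adjusted p = 0.0399) passed under only 4 of 11 alternative settings. The interaction was -1.63 ± 0.15 (limma adjusted p = 2.47e-04). Fosl2 was 10.9 and 12.9 TPM under PBS and 41.0 and 49.9 TPM under LPS in WT cells, and 13.1 and 13.02 TPM and then 39.8 and 32.7 TPM in Vim-KO cells. Its log2 fold changes were 1.84 ± 0.13 and 1.40 ± 0.13, and their difference of -0.44 ± 0.19 did not pass (limma adjusted p = 0.14).

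Fos was the member that fell in WT cells, from 55.3 and 52.1 TPM under PBS to 28.0 and 32.7 TPM under LPS (log2 fold change -0.80 ± 0.19, limma adjusted p = 0.00562). Under median-of-ratios scaling between libraries this call was lost (-0.44, limma adjusted p = 0.0596). Vim-KO libraries were low in Fos throughout, at 8.93 and 6.19 TPM under PBS and 9.49 and 6.64 TPM under LPS. These ranges overlapped, with a log2 fold change of 0.083 ± 0.19 (limma adjusted p = 0.721). The interaction for Fos, 0.89 ± 0.27, missed the threshold (limma adjusted p = 0.0531), and passed without the Vim-KO PBS library of replicate 1 (0.0355) or the Vim-KO LPS library of replicate 2 (0.0207).

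Of the JUN genes, Jun was 30.1 and 30.8 TPM under PBS and 41.8 and 45.4 TPM under LPS in WT cells, and 40.9 and 46.0 TPM and then 86.4 and 75.8 TPM in Vim-KO cells. Both changes passed (log2 fold changes 0.50 ± 0.09 and 0.88 ± 0.09), and WT cells with LPS and Vim-KO cells with PBS overlapped in level. The interaction of 0.38 ± 0.13 did not pass (limma adjusted p = 0.0775, and 0.0354 without the Vim-KO LPS library of replicate 2). Junb rose by similar values, from 103 and 100.1 to 332 and 353 TPM in WT and from 73.2 and 74.2 to 304 and 219 TPM in Vim-KO cells (log2 fold changes 1.74 ± 0.13 and 1.79 ± 0.13). Its interaction was 0.052 ± 0.19 (limma adjusted p = 0.876), which leaves room for a difference of either sign. Jund rose from 84.9 and 85.9 to 127 and 154 TPM in WT and from 53.9 and 48.9 to 189.7 and 144 TPM in Vim-KO cells. Its interaction of 0.97 ± 0.20 passed (limma adjusted p = 0.0125), but not without the Vim-KO PBS library of replicate 2 (limma adjusted p = 0.055).

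Atf3 was 40.9 and 42.9 TPM under PBS and 79.4 and 74.1 TPM under LPS in WT cells, a 1.83-fold rise (log2 fold change 0.86 ± 0.16, limma adjusted p = 0.0015). In Vim-KO cells it was 9.87 and 6.96 TPM under PBS and 126 and 99.6 TPM under LPS, a 13.4-fold rise (log2 fold change 3.60 ± 0.16, limma adjusted p = 5.55e-07). The Vim-KO libraries were below all WT libraries with PBS and above all of them with LPS, and the interaction was 2.74 ± 0.22 (limma adjusted p = 1.56e-04). Batf was 0.700 and 0.639 TPM under PBS and 6.91 and 7.29 TPM under LPS in WT cells, and 16.4 and 19.2 TPM under PBS and 143 and 152 TPM under LPS in Vim-KO cells. The ratio of means was 10.6 in WT and 8.28 in Vim-KO cells. The Batf interaction was 0.71 ± 0.14 with a pseudocount of 1 TPM (limma adjusted p = 0.0129) and -0.18 with a pseudocount of 0.1 TPM (limma adjusted p = 0.48), so its sign depended on the pseudocount.

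Vim-KO against WT cells, over the same 8 libraries, asks how the family differs between the lines at the same treatment. With PBS, 3 members were higher in Vim-KO cells (Batf, Fosl1 and Jun) and 4 were lower (Fos, Atf3, Jund and Junb), where 17.7% of genes were higher and 25.4% lower. Batf was 26.6 times its WT level (log2 fold change 3.49 ± 0.10, limma adjusted p = 3.88e-07), and Fosl1 was 2.67 times (1.32 ± 0.10, limma adjusted p = 3.83e-05). Jun was higher by 0.50 ± 0.09 on the log2 scale (limma adjusted p = 0.0035). Fos was 0.141 times its WT level (log2 fold change -2.69 ± 0.19, limma adjusted p = 2.32e-05) and Atf3 0.201 times (-2.21 ± 0.16, limma adjusted p = 2.45e-05). Jund was lower by a log2 fold change of -0.72 ± 0.14 (limma adjusted p = 0.004). The call for Junb (-0.46 ± 0.13, limma adjusted p = 0.0246) was lost when any library of the 2 groups was left out (limma adjusted p between 0.0826 and 0.109). Fosl2 did not pass (0.13 ± 0.13, limma adjusted p = 0.478).

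With LPS, Batf, Jun and Atf3 were higher and Fos, Junb and Fosl1 lower in Vim-KO cells, where 24.1% of genes were higher and 20.6% lower. Batf was 20.8 times its WT level (log2 fold change 4.20 ± 0.10, limma adjusted p = 1.73e-07) and took the third highest mean of the family, with Jund overlapping it. Jun was 1.86 times (0.88 ± 0.09, limma adjusted p = 1.93e-04) and Fos 0.265 times its WT level (-1.81 ± 0.19, limma adjusted p = 1.96e-04). These 3 calls held in all 11 alternatives. Those of Atf3 (0.54 ± 0.16, limma adjusted p = 0.0252), Junb (-0.41 ± 0.13, limma adjusted p = 0.0375) and Fosl1 (-0.31 ± 0.10, limma adjusted p = 0.0399) were all lost when either WT LPS library was left out (limma adjusted p between 0.0672 and 0.176), which left 3 of 8 members past the threshold. They were also lost without the Vim-KO LPS library of replicate 1 for Atf3 (limma adjusted p = 0.121) and of replicate 2 for Junb and Fosl1 (0.0766 and 0.174). Fosl2 (-0.32 ± 0.13, limma adjusted p = 0.0899) and Jund (0.24 ± 0.14, limma adjusted p = 0.193) did not pass, although Fosl2 passed without the Vim-KO library of replicate 1 (limma adjusted p = 0.0418) and Jund without that of replicate 2 (0.0252). Lymphocytes are known for Batf. The 9 lymphocyte markers summed to at most 0.265 TPM in the Vim-KO libraries, and their part in the Batf difference was not tested.

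TPM share a fixed total, and most changed genes fell with LPS. Median-of-ratios scaling between libraries brought the median log2 fold change of all genes near 0. It went from -0.23 to -0.0013 for LPS at 24 h and from -0.16 to -0.0034 for LPS plus CTM against PBS. For LPS at 12 h it went from -0.35 to -0.0047 in WT and from -0.23 to 0.0036 in Vim-KO cells. For the interaction it went from 0.086 to -0.019. Among the genes passing, the percentage that were higher went from 31.6 to 50.3 for LPS at 24 h, from 32.9 to 52.2 for LPS plus CTM against PBS, from 25.2 to 50.3 and from 31.0 to 50.4 for LPS at 12 h, from 63.1 to 44.9 for CTM against LPS, and from 66.2 to 47.7 for the interaction. With the scaling, rises with LPS were larger. The fall of Fos in WT cells at 12 h was smaller, at -0.44 in place of -0.80, and no longer passed (limma adjusted p = 0.0596). Atf3 rose by 5.59 at 24 h, Jund by 1.08 at 12 h in WT cells, and Fos passed at 24 h (0.51, limma adjusted p = 0.0341). The Fosl1 call for CTM against LPS was lost (0.31, limma adjusted p = 0.0800). Fosl2 for Vim-KO against WT with LPS passed (-0.39, limma adjusted p = 0.0342). The sign of the Junb interaction was the only sign among the members to flip with the scaling, to -0.062.

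**Figure D3:**
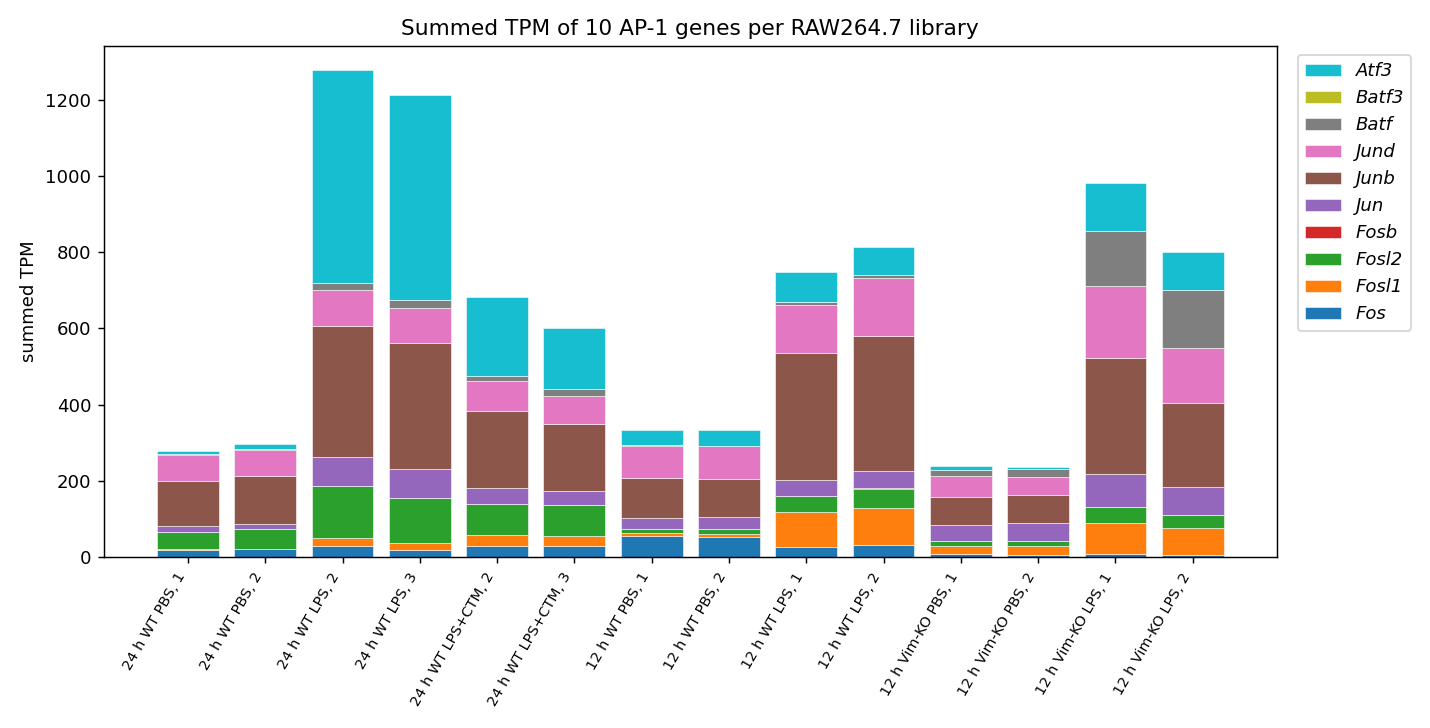
Summed TPM of the 10 genes (y axis) in each of the 14 RAW264.7 libraries (x axis), stacked by gene. The sum was 280 and 298 TPM under PBS at 24 h and 1277 and 1213 TPM under LPS, where Atf3 made up 43.7% and 44.3% of it.

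Since TPM are per length, levels of different members can be set side by side within a library. The 10 members summed to 280 and 298 TPM under PBS, 1277 and 1213 TPM under LPS, and 683 and 601 TPM under LPS plus CTM at 24 h. Junb held the largest share with PBS (42.8% and 41.9%), followed by Jund (23.8% and 22.9%) and Fosl2 (16.0% and 17.2%). With LPS, Atf3 went from 3.60% and 5.13% to 43.7% and 44.3%, and the JUN genes together went from 72.2% and 69.4% to 40.2% and 41.0%. With LPS plus CTM, Atf3 held 30.4% and 26.7%, and Junb (29.5% and 29.2%) and Atf3 overlapped in level. In the LPS libraries, Fos, Fosl1 and Batf, the next in order below Jun, overlapped each other in part.

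At 12 h the sum was 334 and 335 TPM under PBS and 748 and 815 TPM under LPS in WT cells, and 239 and 238 TPM and then 980 and 800 TPM in Vim-KO cells. In WT cells the 3 subfamilies kept close to the same proportions, the JUN genes holding 65.3% and 64.7% with PBS and 66.9% and 67.8% with LPS. Within the FOS genes the proportions turned over: Fos went from 16.5% and 15.6% to 3.75% and 4.02%, and Fosl1 from 2.32% and 2.70% to 12.2% and 12.0%. In Vim-KO cells Batf, Batf3 and Atf3 together went from 11.1% and 10.98% to 27.4% and 31.4%. Batf alone held 14.6% and 19.0% of the sum in Vim-KO cells with LPS, against 0.924% and 0.895% in WT cells with LPS. These shares are a description with no test.

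For each member, the 2 genes with the most similar pattern were found by Pearson correlation of log2(TPM + 1), centred within each experiment, over the 14 libraries and 8773 genes. The libraries share group differences that many genes follow, so high values are common. Fosl1 was closest to Ets2 (0.986), which encodes an ETS transcription factor, and Acsbg1 (0.985). Fosl2 was closest to Plek (0.99) and Phlda1 (0.988), Junb to Rnf11 (0.988) and Stat3 (0.988), and Jund to Helz2 (0.981) and Fam53c (0.979). Atf3 was closest to Ccrl2 (0.984), a chemokine-binding receptor, and Flrt2 (0.98), and Batf to the cytokine gene Ltb (0.981) and Tasp1 (0.974). Fos, the member that fell in WT cells at 12 h, was closest to Atrn (0.982) and Plcb2 (0.982), and Jun, with the lowest values, to Atp6v1d (0.964) and Etv1 (0.957).

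Genes known as AP-1 targets were followed in a list of 18, of which 16 were tested. With LPS, 15 rose and 1 fell at 24 h, 14 rose and 2 fell in WT cells at 12 h, and 13 rose and 3 fell in Vim-KO cells, with median log2 fold changes of 2.23, 2.26 and 1.86. Over all genes tested 20.9% rose and 45.1% fell, 17.8% rose and 53.1% fell, and 20.5% rose and 45.8% fell in these comparisons, with medians of -0.23, -0.35 and -0.23. The prostaglandin synthase gene Ptgs2 rose most at 24 h, from 4.1958 ± 0.691 to 865 ± 7.22 TPM (SD, n = 2). With CTM added to LPS, 1 target rose and 11 fell (median -0.66, against 16.1%, 9.45% and a median of 0.07 over all genes), Ptgs2 falling to 142 ± 24.0 TPM (SD, n = 2, log2 fold change -2.61 ± 0.13). Against PBS, 14 rose and 2 fell with LPS plus CTM (17.4% and 35.5% of all genes). Between Vim-KO and WT cells, 6 were higher and 6 lower with PBS (17.7% and 25.4% of all genes), and 4 higher and 8 lower with LPS (24.1% and 20.6% of all genes). Mmp9, which encodes a gelatinase, was 35.2 ± 5.01 TPM in WT cells with LPS and 0.812 ± 0.183 TPM in Vim-KO cells with LPS (SD, n = 2, log2 fold change -4.32 ± 0.16). Plau, which encodes urokinase, was 30.6 ± 1.77 TPM in WT and 100.04 ± 4.02 TPM in Vim-KO cells with LPS (SD, n = 2, log2 fold change 1.68 ± 0.10).

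Other bZIP partners of the family were tested as 11 of a list of 12. With LPS, 7 rose and 2 fell at 24 h (20.9% and 45.1% of all genes tested), and 6 rose and 2 fell in each genotype at 12 h (17.8% and 53.1% of all genes in WT, 20.5% and 45.8% in Vim-KO cells). Their medians were 0.60, 0.41 and 0.46. Maff, a small MAF protein gene, was 2.35 ± 0.779 TPM under PBS and 42.1 ± 1.55 TPM under LPS at 24 h, and 12.1 ± 2.07 TPM with CTM added (SD, n = 2). With CTM against LPS 5 partners fell (9.45% of all genes), and with LPS plus CTM against PBS 6 rose and 2 fell (17.4% and 35.5% of all genes). Jdp2, the neighbour of Fos and Batf, rose from 38.6 ± 0.00623 to 121 ± 9.13 TPM at 24 h (SD, n = 2). In Vim-KO cells 2 partners were higher and 4 lower than in WT cells with PBS (17.7% and 25.4% of all genes), and 6 lower with LPS (20.6% of all genes). Of the partners of BATF, Irf8 was 104 ± 0.802 TPM in WT and 61.4 ± 6.31 TPM in Vim-KO cells with LPS (SD, n = 2, log2 fold change -0.76 ± 0.09), opposite in direction to Batf, and Irf4 was too low at 12 h to be tested.

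Of 16 MAP kinase genes upstream of the family, 1 rose and 5 fell with LPS at 24 h (20.9% and 45.1% of all genes tested), and at 12 h 2 rose and 9 fell in WT (17.8% and 53.1% of all) and 2 rose and 7 fell in Vim-KO cells (20.5% and 45.8% of all). Their median log2 fold changes were -0.16, -0.22 and -0.20, near those of all genes tested (-0.23, -0.35 and -0.23). Mapk14, which encodes p38 alpha, was 89.3 ± 3.81 TPM under PBS, 24.7 ± 2.95 TPM under LPS and 37.6 ± 0.453 TPM under LPS plus CTM at 24 h (SD, n = 2). With CTM against LPS 2 rose and 1 fell (16.1% and 9.45% of all genes). Between Vim-KO and WT cells 1 was higher and 4 lower with PBS (17.7% and 25.4% of all), and 2 higher and 4 lower with LPS (24.1% and 20.6% of all). Of 9 genes for factors that induce Fos and Jun transcription, read against the same shares of all genes, 4 rose and 3 fell with LPS at 24 h, and 2 rose and 4 fell in WT and 1 rose and 5 fell in Vim-KO cells at 12 h. Mef2c, whose product acts on the Jun promoter, fell from 154 ± 1.65 to 30.5 ± 2.95 TPM under LPS in WT cells at 12 h (SD, n = 2). Srf, which encodes serum response factor, was 75.1 ± 5.88 TPM in Vim-KO and 46.3 ± 1.69 TPM in WT cells with PBS (SD, n = 2, log2 fold change 0.68 ± 0.11), opposite in direction to Fos. In that comparison 2 of the 9 were higher and 2 lower (17.7% and 25.4% of all genes). Those lower, like Fos, were Mef2a (log2 fold change -0.61) and Elk4 (-0.29). Of 6 genes for turnover and cofactors of AP-1 proteins, 2 rose and 3 fell with LPS at 24 h (20.9% and 45.1% of all genes). At 12 h 2 rose and 1 fell in each genotype (17.8% and 53.1% of all in WT, 20.5% and 45.8% in Vim-KO cells).

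**Figure D4:**
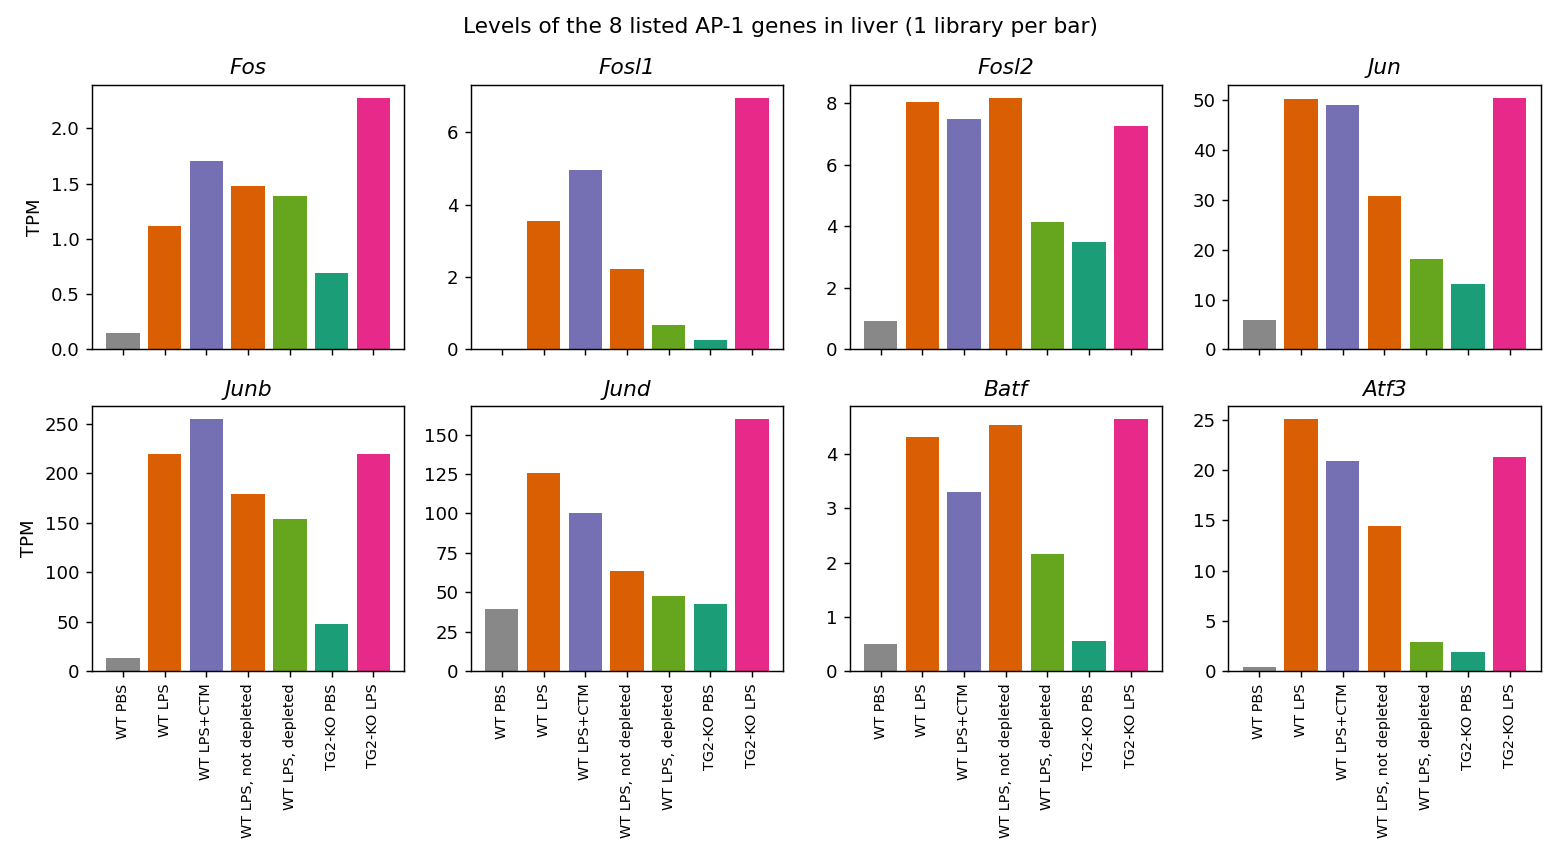
Level of the 8 listed genes in TPM (y axis, each panel with its own scale from 0) in the 7 liver libraries (x axis), 1 bar per library. Atf3 was 14.46 TPM without and 2.85 TPM with macrophage depletion under LPS.

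In liver each group was 1 library, so no difference has a replicate check and no test was made. Every gene listed differs 2-fold or more between the WT libraries under PBS and LPS, so that contrast chose which members are listed and supports nothing about them. There 7 of 8 listed members were higher by at least 1 on the log2(TPM + 1) scale and 0 lower, where 20.6% of listed genes were higher and 46.3% lower. Junb was 12.7 TPM under PBS and 219.67 TPM under LPS, Atf3 0.39 and 25.08 TPM, and Jun 5.91 and 50.19 TPM. Jund was 39.21 and 125.91 TPM, Fosl2 0.92 and 8.03 TPM, and Batf 0.49 and 4.32 TPM. Fosl1 was listed at 0 with PBS and at 3.55 TPM under LPS, and Fos was low at 0.15 and 1.12 TPM. Junb and Jund held the highest levels of the listed members in all 7 libraries.

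The choice of listed genes used WT libraries and not those of TG2-KO. It still picked members that differ with the same LPS dose in WT liver, so their LPS differences in TG2-KO are not independent of it. In TG2-KO liver 6 of 8 members were at least 1 higher with LPS than with PBS and 0 lower, where 14.8% of listed genes were higher and 17.1% lower. Junb was 47.86 TPM under PBS and 219.95 TPM under LPS, Jund 42.39 and 159.85 TPM, and Jun 13.17 and 50.53 TPM. Atf3 was 1.9 and 21.33 TPM, Fosl1 0.27 and 6.96 TPM, and Batf 0.56 and 4.65 TPM. Fosl2 (3.5 and 7.28 TPM) and Fos (0.69 and 2.28 TPM) differed by 0.88 and 0.96 on the log2(TPM + 1) scale. In the same libraries the 5 listed neutrophil markers summed to 27.9 and 132 TPM and the 6 listed macrophage markers to 38.5 and 440.3 TPM, and their part in the difference was not tested. In WT liver the neutrophil markers summed to 1.4 and 68.7 TPM. The WT LPS library is one of the 2 that chose the listed genes. Between TG2-KO and WT with LPS, 0 of 8 members differed by at least 1 in either direction, where 4.27% of listed genes were higher and 2.04% lower. The difference farthest from 0 was 0.81 for Fosl1, and Junb and Jun differed by 0.0018 and 0.0096. TG2-KO RNA was extracted on a date of its own, so genotype and date cannot be told apart.

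With CTM added to LPS in WT liver, 0 of 8 members differed by at least 1, where 0.698% of listed genes were higher and 0.887% lower. Atf3 was 20.92 TPM with CTM and 25.08 TPM under LPS alone, Jun 49.07 and 50.19 TPM, and Junb 255.03 and 219.67 TPM. The member differences lay between -0.32 for Jund and 0.39 for Fosl1. The differences of liver and of the cell line come from separately normalized values at unlike doses and were not compared by a test.

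Macrophage depletion under LPS gave the lower library in all 8 listed members. A value below 0 was common, since the median over all listed genes was itself below 0 (-0.04). By at least 1, only Atf3 was lower and 0 members were higher, where 2.59% of listed genes were higher and 6.25% lower by that much. Atf3 was 14.46 TPM without and 2.85 TPM with depletion (difference -2.01), and 1.02% of listed genes had a lower difference. Fosl1 was 2.22 and 0.68 TPM (-0.94), Fosl2 8.19 and 4.16 TPM (-0.83), Batf 4.54 and 2.16 TPM (-0.81), and Jun 30.76 and 18.17 TPM (-0.73). With a pseudocount of 0.1 TPM in place of 1, 3 members were lower by at least 1. Jund (63.15 and 47.36 TPM), Junb (179.08 and 153.77 TPM) and Fos (1.48 and 1.39 TPM) differed by -0.41, -0.22 and -0.053. The median was -0.77 over the 8 members and -0.04 over all listed genes. In the same pair the 5 listed Kupffer cell markers, genes of the resident macrophages of liver, summed to 68.5 TPM without and 10.4 TPM with depletion, and the 5 listed neutrophil markers to 102 and 194 TPM. The 6 listed general macrophage markers summed to 345 TPM without and 559 TPM with depletion, of which 290.7 and 540.4 TPM came from Cd14, and 3 of the 6 were lower by at least 1 with depletion. Their part in the differences was not tested. The other WT library with LPS, outside this pair, also differed from the one without depletion. It was higher in Jun (50.19 TPM), Jund (125.91 TPM), Atf3 (25.08 TPM), Junb (219.67 TPM) and Fosl1 (3.55 TPM). It was lower in Fosl2 (8.03 TPM), Batf (4.32 TPM) and Fos (1.12 TPM).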

How the data were processed

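mRNA libraries were prepared with a stranded kit (TruSeq), per the labels. The deposited values are TPM per gene. The authors used Salmon, and the builds named are GRCm38 and mm10, per the submitters' processing notes; versions and annotation are not given in the sources used here. TPM are scaled within a library, so a change in a few abundant genes moves all others, and depth and counting error are unknown. The reads were not used here. How transcripts of overlapping or antisense genes were divided is not stated.

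The 10 members and the gene lists were chosen with earlier results of these data known. In the 24 h values, libraries of the LPS and CTM groups are numbered 2 and 3 where their labels say 1 and 2, so they were assigned to groups only. Genes averaging 1 TPM or more over an experiment were tested on log2(TPM + 1) in limma 3.58.1 (R 4.3.3) with a mean-variance trend, all groups of the experiment in 1 fit, Benjamini-Hochberg adjustment over all genes tested and a threshold of 0.05. For the interaction, the change with LPS in WT cells was subtracted from that in Vim-KO cells. The fit was tested on simulated data. Liver has 1 library a group and received no test; differences of log2(TPM + 1) of at least 1 are counted. Besides the members, up to 4 genes past the threshold with the largest change were eligible from each list, and the text gives part of them. The 2 genes most like each member needed a mean of at least 5 TPM in both experiments. Positions are from a GRCm38 annotation and promoters from RefSeq (GRCm38.p6). Liver RNA was extracted on 3 dates, and that of each cell line experiment on 1 date. Tables were normalized separately, and tests stayed within a table. The settings varied were the pseudocount (0.1), the filter (none, or 5 TPM), median-of-ratios scaling, limma without the trend, the contrast's samples alone, a replicate block, and leaving out each library.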

Additional observations from a re-analysis of the deposited data

Results flagged for a closer look

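The LPS change of 4 members at 12 h differed between Vim-KO and WT cells by the interaction term, each with 2 libraries a group and limma adjustment over 11115 genes. For Atf3 the LPS change was larger in Vim-KO cells by 2.74 on the log2 scale (limma adjusted p = 1.56e-04), both Vim-KO libraries lying below WT with PBS and above WT with LPS. Over its 14 alternatives the value lay between 2.52 and 2.97. For Fosl1 the difference was -1.63 (limma adjusted p = 2.47e-04), between -1.73 and -1.52 over its 14 alternatives. For Jund it was 0.97 (limma adjusted p = 0.0125), between 0.77 and 1.16 over its alternatives, and it missed the threshold without the Vim-KO PBS library of replicate 2 (limma adjusted p = 0.055). For Batf it was 0.71 (limma adjusted p = 0.0129), and it turned to -0.18 with a pseudocount of 0.1 TPM, Batf being under 1 TPM in the WT PBS libraries.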

How the results depend on the processing

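Of the members' log2 fold changes under alternatives, 651 kept their direction and side of the threshold, 45 lost the call, 10 gained it and 6 changed sign. The signs that changed were those of Fos with LPS at 24 h (-0.031 without the LPS library numbered 2; leave-one-out range to 0.56), Fos with LPS in Vim-KO cells (-0.15 without the Vim-KO PBS library of replicate 2 and -0.15 without the Vim-KO LPS library of replicate 1; range to 0.32), the Junb interaction (-0.062 with scaling and -0.18 without the Vim-KO LPS library of replicate 1; range to 0.29) and the Batf interaction (-0.18 with a pseudocount of 0.1). Of these 6, the Batf interaction was the only value called with the settings used. Members past the threshold for Vim-KO against WT with LPS numbered 6, and 3 without a filter (over leave-one-out fits 3 to 6). In liver, 3 members were lower by at least 1 after depletion with a pseudocount of 0.1, against 1. Without Jund in the sum, the highest member's share went to 55.2% (PBS), 47.6% (LPS) and 33.4% (LPS plus CTM) at 24 h, and to 40.8% and 53.4% in WT and 39.4% and 35.9% in Vim-KO cells with PBS and LPS at 12 h, since the sum is smaller. Over all genes, 2823 passed for CTM against LPS, and 1680 without the LPS library numbered 3, 1525 without the CTM library numbered 2 and 1094 without that numbered 3. For the interaction 2292 passed and leave-one-out fits gave 1219 to 2649, with 1219 to 1458 without either WT PBS library, either Vim-KO PBS library or the WT LPS library of replicate 1. Equal replicate numbers did not pair the libraries: deviations from group means correlated at -0.219 to 0.098 at 12 h and -0.031 for CTM and LPS at 24 h. A replicate block ended the Fosl1 calls for CTM against LPS (limma adjusted p = 0.0524) and for Vim-KO against WT with LPS (limma adjusted p = 0.0599) and no other call of a member. No block could be fitted for PBS at 24 h, which shares 1 number with the other groups. Depth is unknown and sets limits that cannot be given.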

Other observations

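WT cells with PBS stood at different levels in the 2 cell line experiments, whose values were normalized separately and not tested against each other. Fosl2 was 44.8 and 51.2 TPM in the 24 h experiment and 10.9 and 12.9 TPM in the 12 h experiment. Fos was 18.6 and 20.6 against 52.1 and 55.3 TPM, and Atf3 10.1 and 15.3 against 40.9 and 42.9 TPM. Jund (66.7 and 68.4 against 84.9 and 85.9 TPM) and Junb (119.7 and 125 against 103 and 100.1 TPM) were nearer to each other. Among the members over the 14 cell line libraries, centred within each experiment, Fosl2 and Junb had a Pearson r of 0.971, Junb and Jund 0.906, Fosl1 and Fosl2 0.892, and Fos and Batf -0.705. These points share groups and libraries, and the values are a description.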
